A study of Mus musculus with 20 samples.

Results

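The secreted Wnt antagonists are proteins that cells release and that lower Wnt signalling outside the cell. The 9 genes described here were listed by name as *Sfrp1*, *Sfrp2*, *Sfrp4*, *Sfrp5*, *Frzb*, *Wif1*, *Dkk1*, *Dkk2* and *Dkk3*, out of 43280 genes listed in the count tables. All 9 were listed in all 12 RNA-seq libraries and in the gene models used for the 4 lists of ATAC-seq peaks. The question was where mesenchymal cells of the mouse gut express them, in stomach against intestine, with and without *Eed*, and in the embryo and the adult.

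Embryonic cells came from mouse embryos at E13.5 (strain C57BL/6 per the labels) and were sorted as GFP+ cells from the stomach or the intestine. Controls were Bapx1-cre;Rosa26mTmG and *Eed* KO embryos were Eedfl/fl;Bapx1-cre;Rosa26mTmG, so both genotypes carried the Cre, which is driven from *Bapx1* (*Nkx3-2*), and the reporter. The reporter turns GFP on in cells that have expressed Cre and in their descendants. Adult cells were GFP+ cells of the small intestine, labelled WT or EED-KO, from tamoxifen-treated mice in which a *Pdgfrb*-CreERT2 allele drove the same reporter; the KO mice also carried floxed *Eed*. *Eed* encodes a core subunit of PRC2, which places a repressive methyl mark on histone H3. There were 2 RNA libraries in each of 6 groups and 1 pooled peak list for each of the 4 embryonic groups. The study's methods call both libraries of a group biological replicates. How many animals gave each library is not given in the sources used here, and p-values measure the spread between these libraries, which may be partly technical.

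Wnt ligands signal through Frizzled receptors and the co-receptors Lrp5 and Lrp6. Sfrp proteins and Frzb carry a Frizzled-like cysteine-rich domain and bind Wnt ligands, and Wif1 binds Wnt ligands through a different domain. Dkk1 and Dkk2 bind Lrp5 and Lrp6, with the Kremen proteins as partners, while Dkk3 is a divergent member whose role in Wnt signalling is less clear. In the developing gut the mesenchyme makes both Wnt ligands and antagonists, which act on the epithelium next to it.

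Gene counts per library ranged from 30236159 to 39606157 in the embryonic and from 11404712 to 15903642 in the adult libraries. Levels are given as CPM (gene counts scaled to a common library size with TMM factors). Levels of different genes are compared only as TPM, which corrects for gene length and was made without TMM factors. *Eed* fell in the embryonic KO stomach (log2 fold change -2.11 ± 0.21, standard error) and intestine (-2.02 ± 0.21). In the adult it was at 29.7 and 33.4 CPM in the control and 25.7 and 25.0 CPM in the KO libraries (-0.32, edgeR adjusted p = 0.317), so *Eed* RNA did not separate the adult groups beyond the threshold. Summed mesenchyme markers were between 13499 and 24787 CPM in the embryonic libraries, against 66.3 to 129 CPM for epithelial and 4.25 to 12.7 CPM for leukocyte markers. In the adult the leukocyte markers were at 2651 and 3475 CPM in the control and at 89752 and 100924 CPM in the KO libraries. Adult KO replicate 2 also stood apart with 690 CPM of *Cpa1*, a pancreatic enzyme, against 10.7 to 20.3 CPM in the other adult libraries.

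The genes lie at chr2:80411970-80447625 (*Frzb*), chr3:83766321-83774316 (*Sfrp2*), chr3:132085292-132180293 (*Dkk2*), chr7:112116019-112159057 (*Dkk3*), chr8:23411502-23449632 (*Sfrp1*), chr10:121033960-121100650 (*Wif1*), chr13:19623175-19632821 (*Sfrp4*), chr19:30545863-30549665 (*Dkk1*) and chr19:42197971-42202252 (*Sfrp5*) on GRCm38. ATAC-seq, which cuts accessible DNA, was used to look at their promoters. All 9 genes had an ATAC peak within 1000 bases of the transcription start in all 4 embryonic lists. Of 16192 genes tested, 87.0% had one in all 4 lists, so this count is near that of all expressed genes. Fold enrichment of the promoter peaks over the MACS2 background lay between 3.24 and 6.99, and their -log10 q between 8.92 and 55.6. The highest enrichment belonged to *Wif1*, with 6.95 in the control stomach, 6.99 in the KO stomach, 6.57 in the control intestine and 6.35 in the KO intestine, although *Wif1* RNA was at most 1.00 CPM in the embryo. The promoter peak of *Sfrp1*, the most abundant of the 9, had 4.35 and 3.24 in the control and KO stomach and 4.68 and 3.61 in the control and KO intestine. Enrichment and RNA were thus not ordered alike across these genes. Read counts under the peaks are not in the lists, so no error or test can be attached to these values.

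**Figure D1:**
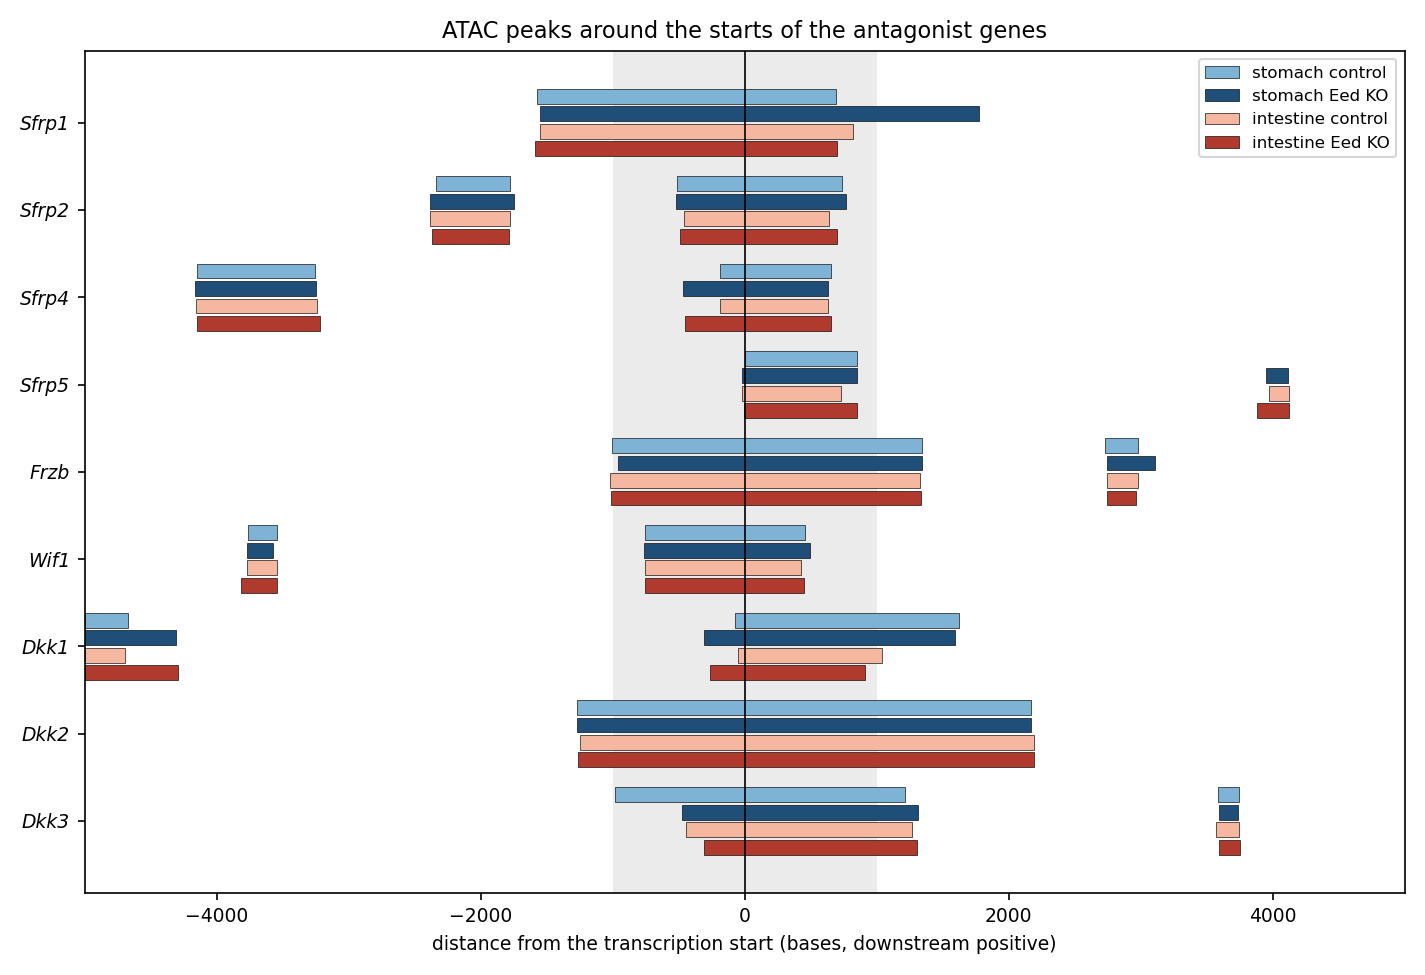
Peaks of the 4 embryonic ATAC lists within 5000 bases of the start of each gene; the x axis is the distance from the transcription start in bases with downstream positive, the bars are peaks coloured by list and are clipped at the plot edge, and the grey band marks the 1000 bases on each side. Every gene has a bar at its start in all 4 lists.

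The KO lists had slightly lower promoter enrichment than the control lists over all genes, with a median ratio of 0.990 in the stomach and 0.952 in the intestine. *Sfrp1* lay low in both, at 0.746 and 0.772, and 1.57% and 5.35% of genes had a ratio at or below its value. *Frzb* was at 1.11 and 1.06 and *Dkk1* at 1.07 in both organs, with 80.2% to 87.7% of genes at or below them. *Sfrp2* was at 0.897 and 0.875. Further peaks lay near most of the genes, and *Sfrp2*, *Sfrp4*, *Frzb*, *Wif1*, *Dkk1* and *Dkk3* each had another peak within about 5000 bases in all 4 lists.

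The mouse promoters of 4 genes are shown because their RNA differed most clearly between organs or genotypes (*Sfrp2*, *Frzb*, *Dkk2*) or lay close to the limit of detection under an accessible promoter (*Dkk1*). Each is the 250 bases before the RefSeq start on GRCm38.p6, read 5′ to 3′ on the strand of the gene, with CG dinucleotides in capitals. They lie at chr3:83766071-83766320 (plus strand), chr2:80447397-80447646 (minus), chr3:132085042-132085291 (plus) and chr19:30549497-30549746 (minus), in that order.
Sfrp2: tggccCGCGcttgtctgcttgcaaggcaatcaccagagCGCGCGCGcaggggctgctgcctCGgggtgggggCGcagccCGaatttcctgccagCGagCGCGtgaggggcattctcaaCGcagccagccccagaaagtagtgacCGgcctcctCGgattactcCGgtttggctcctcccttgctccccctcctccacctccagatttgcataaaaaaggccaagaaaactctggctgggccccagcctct
Frzb: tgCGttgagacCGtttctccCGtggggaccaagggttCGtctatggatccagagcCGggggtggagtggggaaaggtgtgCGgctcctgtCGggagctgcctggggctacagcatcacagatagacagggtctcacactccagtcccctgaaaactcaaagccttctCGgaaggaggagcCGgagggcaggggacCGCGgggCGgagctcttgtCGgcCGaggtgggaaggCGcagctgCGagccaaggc
Dkk2: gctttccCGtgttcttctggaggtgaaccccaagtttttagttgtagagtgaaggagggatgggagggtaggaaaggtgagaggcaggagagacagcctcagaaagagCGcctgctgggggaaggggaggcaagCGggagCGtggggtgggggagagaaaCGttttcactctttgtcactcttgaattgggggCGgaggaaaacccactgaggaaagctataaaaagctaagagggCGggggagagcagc
Dkk1: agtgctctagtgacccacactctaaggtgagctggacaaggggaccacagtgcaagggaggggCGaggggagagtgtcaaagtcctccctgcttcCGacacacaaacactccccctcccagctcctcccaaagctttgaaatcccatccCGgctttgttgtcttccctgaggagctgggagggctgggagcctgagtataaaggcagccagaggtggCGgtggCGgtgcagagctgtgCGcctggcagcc

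The *Sfrp2* and *Frzb* windows each held 16 CG dinucleotides, the *Dkk2* window held 7 and the *Dkk1* window held 6. The *Sfrp2*, *Frzb* and *Dkk2* windows lay wholly inside the promoter peak in all 4 lists. The *Dkk1* window did so in 2 lists, the KO stomach and the KO intestine, and at least 217 of its 250 bases were covered in the control lists. RefSeq promoters (250 bases before to 50 after the start) were at hand for 6 of the 9 genes, also *Wif1* and *Sfrp5*, and not for *Sfrp1*, *Sfrp4* and *Dkk3*. These 6 held 9 to 25 CG dinucleotides, with a median of 17.5 against 7 over 32851 promoters. The motif TATAAA, searched on both strands, was in 3 of the 6 (*Dkk1*, *Dkk2*, *Wif1*) and in 13.6% of all promoters. The motif CTTTGA, the core bound by Tcf and Lef factors, was on either strand in *Frzb* (1 match) and *Dkk1* (2 matches) and in 5257 of the 32851 promoters.

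In the control embryo *Sfrp1* made up most of the antagonist RNA. Per length, it reached 666 ± 61 TPM in the stomach and 651 ± 5.1 TPM in the intestine (mean ± SD, 2 libraries each), which was 70.4% and 73.5% of the summed TPM of the 9 genes. In the control stomach *Sfrp2* followed with 196 TPM, then *Dkk3* with 42.0, *Dkk2* with 33.4 and *Frzb* with 5.29 TPM, and the ranges of *Dkk3* and *Dkk2* overlapped. In the control intestine *Dkk2* (88.9 TPM) and *Sfrp2* (88.3 TPM) overlapped in range, followed by *Dkk3* (46.4 TPM) and *Frzb* (9.42 TPM). *Wif1*, *Sfrp4*, *Sfrp5* and *Dkk1* were near the limit of detection in every embryonic library, at 0 to 45 counts each. A count of 0 allowed up to 0.0757 to 0.0992 CPM in these libraries, a limit that covers counting error only.

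**Figure D2:**
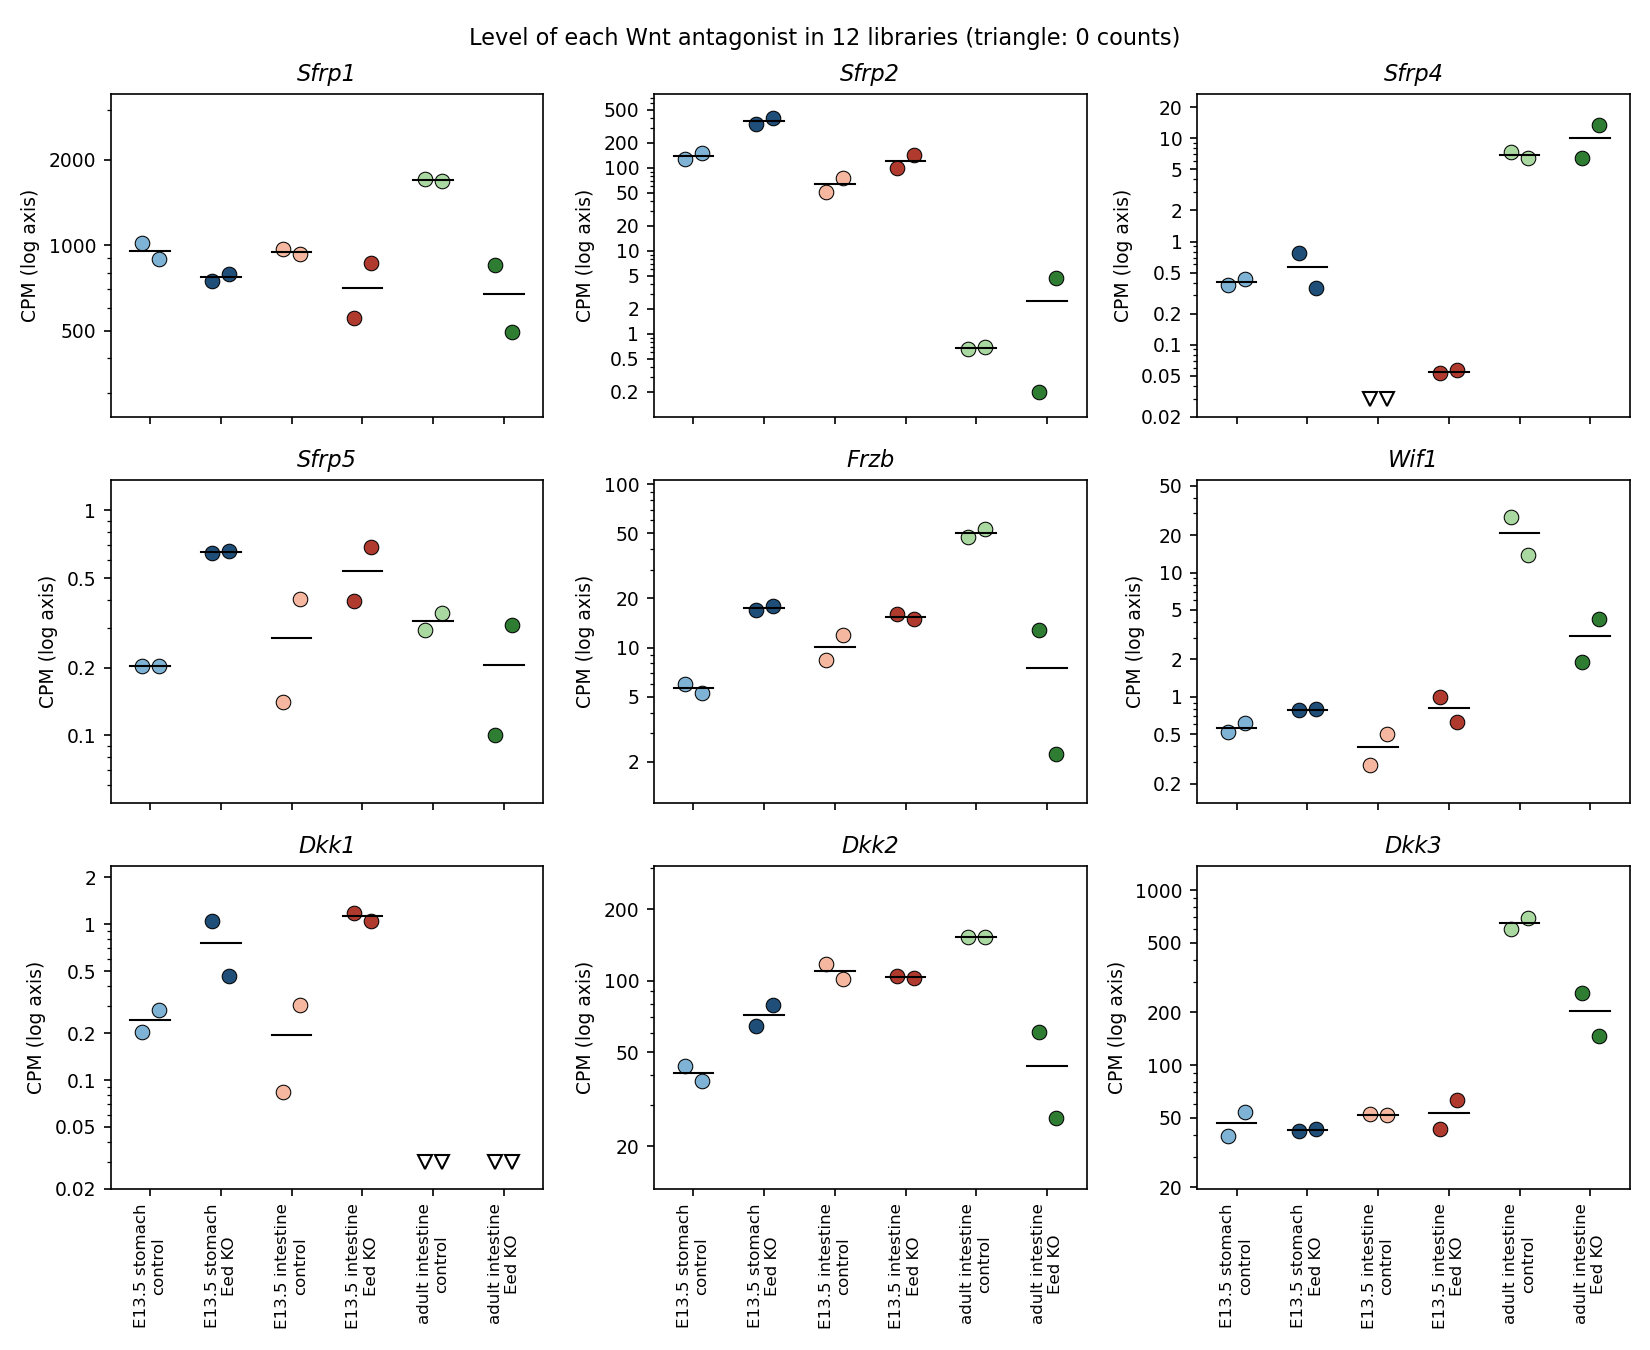
CPM of each gene on a log axis in the 12 libraries by group, with points for libraries, a bar for the mean of the group and triangles, at an arbitrary height, for libraries with 0 counts. *Sfrp1* is high in every group, *Sfrp2* is highest in the KO stomach, and 5 genes lie lower in the adult KO than in the adult control libraries.

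The control organs differed in 3 of the 9 antagonists. *Dkk2* was higher and *Sfrp2* and *Sfrp4* were lower in the intestine than in the stomach, and no difference was called for *Sfrp1*. A call required an adjusted p below 0.05 together with a more than 2-fold difference. Over all genes 5.07% of 16218 tested were called, 1.68% as higher and 3.39% as lower in the intestine. The intestinal libraries lay wholly above the stomach in 2 of the 9 genes and wholly below in 3, against 24.5% and 26.7% of all genes. *Dkk2*, a ligand of the Lrp co-receptors, was at 118 and 102 CPM in the intestine and at 43.5 and 37.8 CPM in the stomach. The groups did not overlap, and the intestine was 2.70-fold higher (log2 1.43 ± 0.14, edgeR adjusted p = 0.00114).

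*Sfrp2* was at 127 and 151 CPM in the stomach and at 51.3 and 75.3 CPM in the intestine. The stomach was 2.20-fold higher (log2 -1.13 ± 0.24 for intestine against stomach, edgeR adjusted p = 0.0293). That call rested on several libraries, since the adjusted p rose to 0.0807 without control stomach replicate 1, 0.179 without control stomach replicate 2 and 0.199 without control intestine replicate 1. It was 0.102 with libraries scaled by the mesenchyme markers, an alternative chosen after seeing the data. *Sfrp4* had 13 and 17 counts in the stomach and 0 in both intestinal libraries, so it was at least 9.04-fold higher in the stomach, with 3 counts over the group as the limit (adjusted p = 0.0192). Its call was lost without any one of the 4 control libraries (adjusted p from 0.0712 to 0.110).

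*Sfrp1* was at 1018 and 897 CPM in the stomach and at 970 and 930 CPM in the intestine. The 95% interval of its log2 difference ran from -0.46 to 0.44. *Frzb* was at 5.97 and 5.30 CPM in the stomach and at 8.43 and 11.9 CPM in the intestine, a log2 difference of 0.85 (adjusted p = 0.0346) that missed the fold threshold. *Dkk3* ranged from 39.2 to 53.7 CPM over these 4 libraries, and the organs overlapped. *Wif1*, *Sfrp5* and *Dkk1*, with 3 to 24 counts each, did not pass the test. The median log2 difference of the 9 genes was -0.01, against 1.89e-05 for all genes.

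In the *Eed* KO stomach 2 of the 9 antagonists rose and none fell. *Sfrp2* and *Frzb* rose, and *Dkk2* was higher without reaching the fold threshold. Over all genes 5.65% were called, 4.84% as higher and 0.808% as lower. *Sfrp2* was at 337 and 393 CPM in the KO and at 127 and 151 CPM in the control stomach, a 2.63-fold difference (log2 1.39 ± 0.24, edgeR adjusted p = 0.0142). The KO libraries did not overlap the controls. The adjusted p rose to 0.108 without control replicate 1, 0.0795 without control replicate 2 and 0.0759 without KO replicate 2, and to 0.192 with 1 factor from the spike-in counts in the fit.

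*Frzb* was at 17.03 and 18.0 CPM in the KO and at 5.97 and 5.30 CPM in the control stomach, a 3.11-fold difference (log2 1.64 ± 0.18, adjusted p = 0.00279). Its call was kept without any one of the 4 stomach libraries (log2 from 1.55 to 1.72). The KO intestine was at 16.01 and 14.9 CPM. *Dkk2* was at 64.4 and 78.9 CPM in the KO against 43.5 and 37.8 CPM in the control stomach (log2 0.82 ± 0.13, adjusted p = 0.0131). *Sfrp1* was at 749 and 794 CPM in the KO stomach, below both controls, with a log2 difference of -0.31 and an interval from -0.76 to 0.14. *Dkk3* was at 42.0 and 43.3 CPM, between the controls.

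Counts of the rare *Dkk1*, *Sfrp5* and *Wif1* were above both controls in both KO stomach libraries. *Dkk1* had 39 and 17 counts in the KO against 7 and 11 in the control libraries, and *Sfrp5* had 24 in each KO library against 7 and 8. Neither passed the adjusted test (adjusted p = 0.150 and 0.111). *Wif1* had 29 counts in each KO library against 18 and 24, and *Sfrp4* had 29 and 13 against 13 and 17. The KO libraries lay wholly above the controls in 6 of the 9 genes and wholly below in 1. This happened in 27.7% and 27.3% of all genes. The median log2 difference of the 9 genes was 0.82, against 8.39e-04 for all genes.

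**Figure D3:**
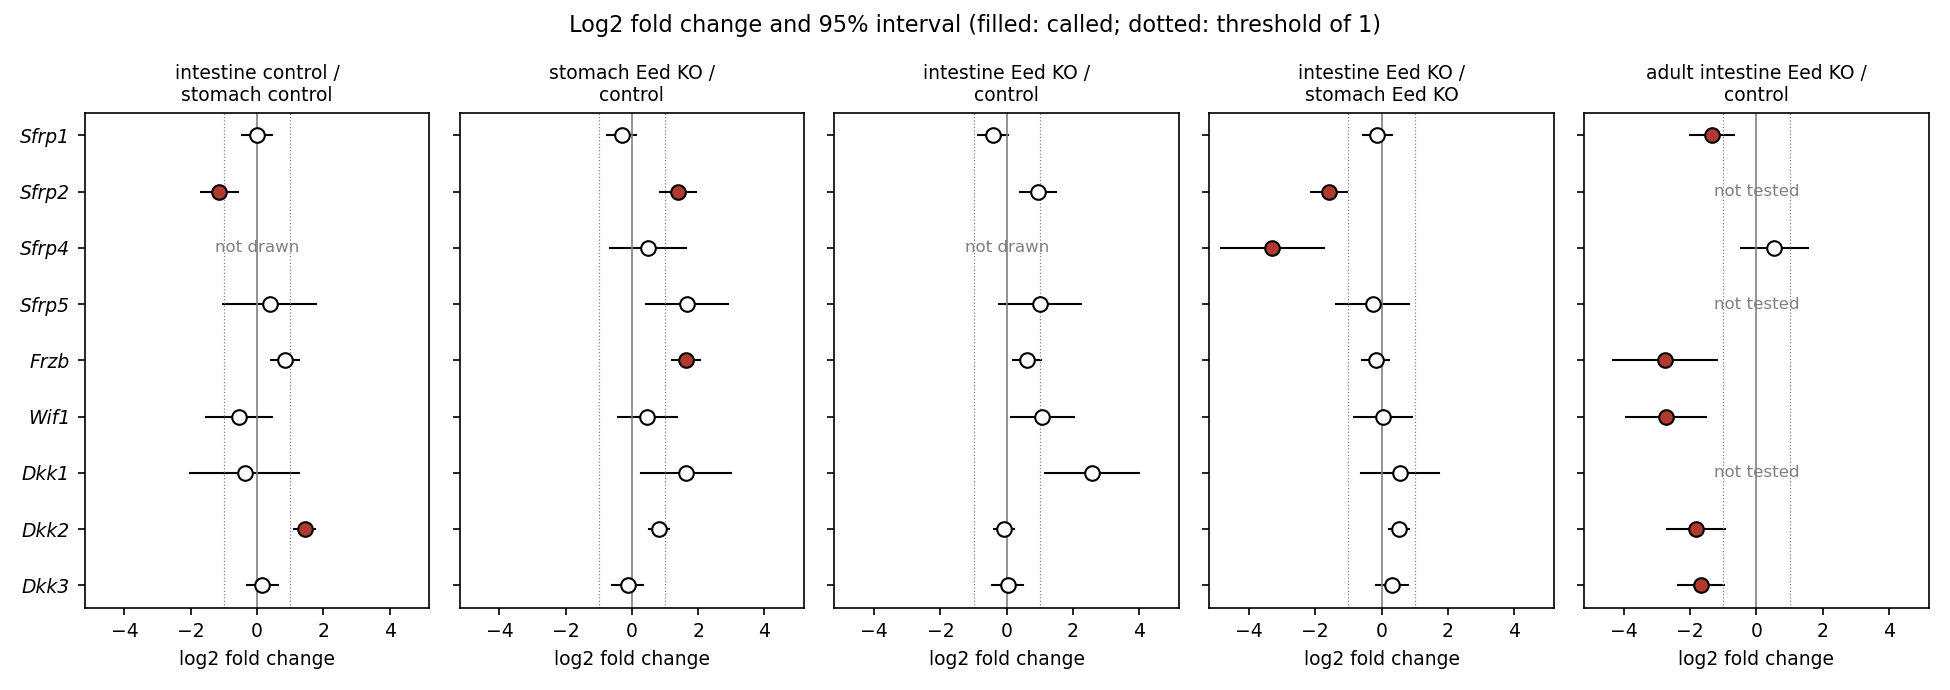
Log2 fold change (x axis) of each gene in 5 comparisons, with its 95% interval from edgeR; filled points were called and dotted lines mark a log2 fold change of 1 in size. *Sfrp4* is not drawn where a group had 0 counts, and 3 genes were not tested in the adult. Called genes lie to the right in the KO stomach and to the left in the adult KO.

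In the *Eed* KO intestine none of the 9 was called by edgeR, and 5 had an unadjusted p below 0.05 (*Sfrp2*, *Sfrp4*, *Frzb*, *Dkk1*, *Wif1*). The share of all genes below that unadjusted p was not determined, so the 5 cannot be set against it. Over all genes 2.61% were called, 2.38% as higher and 0.228% as lower. DESeq2 called 628 of 16218 genes higher and 57 lower. Among the 9 it called 1, *Dkk1*, which had 45 and 37 counts in the KO and 3 and 9 in the control intestine. The ratio of its counts per library total was 6.23, with a 95% counting interval from 3.38 to 12.5. Its log2 fold change was 2.56 ± 0.61 in edgeR (adjusted p = 0.0764) and 2.57 in DESeq2 (adjusted p = 0.0199). The edgeR value was 1.87 without control replicate 1 and 3.68 without control replicate 2. Both KO libraries had 1.19 and 1.06 CPM of *Dkk1*, barely above KO stomach replicate 1 at 1.05 CPM. In TPM the second of them and KO stomach replicate 1 were level (1.353 and 1.354).

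*Sfrp2* was at 98.3 and 145 CPM in the KO and 51.3 and 75.3 CPM in the control intestine (log2 0.94 ± 0.23, edgeR adjusted p = 0.0891). Without KO replicate 1 its log2 difference was 1.19 and it passed (adjusted p = 0.0422). *Frzb* was at 16.01 and 14.9 CPM against 8.43 and 11.9 (log2 0.61 ± 0.18, adjusted p = 0.142). *Wif1* had 38 and 22 counts against 10 and 15 (adjusted p = 0.282), and *Sfrp4* had 2 in each KO library against 0. *Dkk2* was at 104 and 103 CPM against 118 and 102, with an interval of the log2 difference from -0.39 to 0.22. *Sfrp1* was at 553 and 863 CPM, both below the controls at 970 and 930. Its log2 difference was -0.42, with an interval from -0.87 to 0.02 (adjusted p = 0.396). *Dkk3* and *Sfrp5* overlapped between the groups. The 5 genes wholly higher and 1 wholly lower in the KO compare with 21.8% and 16.4% of all genes, and the median log2 difference was 0.94 against 0.01.

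Whether the response to *Eed* loss differed between the organs was tested by the interaction of organ and genotype, at an adjusted p below 0.2. None of the 9 genes passed in edgeR, where 0.462% of all genes did, 0.271% with a positive and 0.191% with a negative difference (the KO change in the stomach minus that in the intestine). Unadjusted p was below 0.05 for *Frzb* (log2 1.03 ± 0.25 larger in the stomach, adjusted p = 0.350) and *Dkk2* (0.90 ± 0.19, adjusted p = 0.230). DESeq2 called 1, *Frzb* (log2 1.04, adjusted p = 0.0548), and edgeR without a filter on low counts called the same gene (adjusted p = 0.105). Over all genes, DESeq2 called 108 with a positive and 99 with a negative difference of 16218. The fit without a filter called 120 and 117 of 25364. In both of these fits *Dkk2* had a lower adjusted p (0.0122 and 0.0351) but a log2 difference under 1. The other 7 genes had an edgeR adjusted p of 0.948 or more. *Dkk2* passed without KO stomach replicate 1 (log2 1.04, adjusted p = 0.196).

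Between the 2 KO organs *Sfrp2* and *Sfrp4* were lower in the intestine, as in the controls. Over all genes 4.4% were called, 1.46% as higher and 2.94% as lower in the intestine. *Sfrp2* in the KO stomach was 3.01-fold above the KO intestine (log2 -1.59 ± 0.24 for intestine against stomach, edgeR adjusted p = 0.00971), and without KO stomach replicate 2 its adjusted p was 0.0542. *Sfrp4* had 29 and 13 counts in the KO stomach and 2 and 2 in the KO intestine (adjusted p = 0.0349). Its call was lost without KO stomach replicate 1 (log2 -2.62 against -3.29 with all libraries, adjusted p = 0.147), KO intestine replicate 1 (0.142) or replicate 2 (0.118). *Dkk2*, called between the control organs, was 1.44-fold higher in the KO intestine (log2 0.53 ± 0.13, adjusted p = 0.0634). *Sfrp1*, *Sfrp5*, *Frzb*, *Dkk1*, *Dkk3* and *Wif1* did not pass (adjusted p from 0.460 to 0.964). The comparisons between organs and between genotypes share libraries, so they are not independent of each other.

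Summed over the 9 genes, antagonist RNA was 944 ± 32 TPM in the control stomach and 1235 ± 126 TPM in the KO stomach. In the intestine it was 885 ± 17 TPM in the control and 817 ± 238 TPM in the KO. As CPM, with TMM factors, the control and KO sums overlapped in both organs. They were 1147 to 1236 against 1213 to 1329 CPM in the stomach and 1172 to 1201 against 817 to 1191 CPM in the intestine. The sum is dominated by *Sfrp1*. Without it, the sums were 279 and 669 TPM in the control and KO stomach and 234 and 323 TPM in the control and KO intestine. In the KO stomach *Sfrp2* supplied 44.0% and *Sfrp1* 45.9% of the total, and their ranges in TPM overlapped. The summed TPM of 19 Wnt ligands was 297 in the control and 303 in the KO stomach, and the ratio of antagonist to ligand RNA was 3.20 ± 0.43 and 4.08 ± 0.15. In the intestine the ratio was 3.56 ± 0.15 in the control and 3.18 ± 0.77 in the KO libraries.

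**Figure D4:**
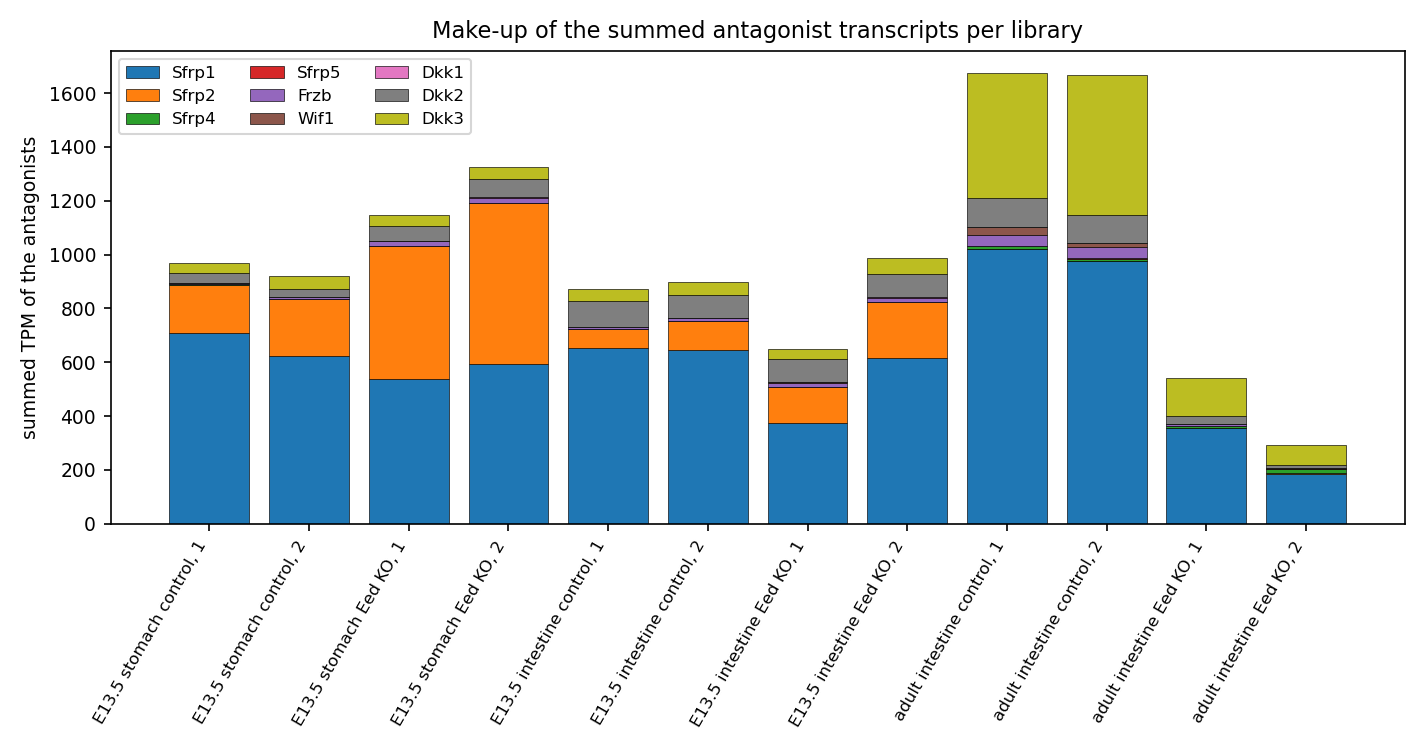
Stacked bars of the TPM of the 9 genes in each of the 12 libraries (y axis, summed TPM), with the replicate number after the group name. *Sfrp1* is the largest share in most bars, *Sfrp2* grows in the KO stomach, and *Dkk3* is the second largest share in the adult bars.

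Markers of other cells were examined beside these changes, since in sorted bulk cells fewer cells of a type and less RNA per cell cannot be told apart. Endothelial markers were higher in the KO stomach, with 4 of 6 called higher and summed levels of 25.4 and 46.1 CPM against 15.4 and 14.9 CPM. In the KO intestine 2 of 6 were called higher, with sums of 48.6 and 49.4 CPM against 15.5 and 20.5 CPM. The leukocyte marker *Ptprc* had at most 1 count in any embryonic library. In the KO stomach the sums of smooth muscle (1896 to 2161 against 2937 to 3050 CPM), mesothelium (336 to 438 against 541 to 564 CPM), pericyte (658 to 684 against 884 to 938 CPM) and interstitial Cajal cell markers (320 to 342 against 372 to 431 CPM) lay below the controls, and none of these markers was called. In the KO intestine the pericyte sum (559 to 802 against 947 to 1060 CPM) and the Cajal cell sum (370 to 385 against 515 to 563 CPM) were lower. The enteric neural crest sum (97.7 to 170 against 195 to 208 CPM) was lower too, and no marker of these lists was called. The median log2 difference of the 8 neural crest markers was 0.55 there, opposite in sign to the change of their sum. Between the control organs the enteric neural crest sum was 55.5 to 67.0 CPM in the stomach and the Cajal cell sum was higher in the intestine. In each of these lists 1 marker was called. The median log2 difference of the neural crest markers was -0.17 for intestine against stomach, again opposite in sign to that of the sum. The part of these cell types in the antagonist levels was not tested. *Barx1*, a transcription factor that marks stomach mesenchyme, was at 627 and 557 CPM in the control and 379 and 310 CPM in the KO stomach. In the intestine it was at 0.534 and 1.48 CPM in the control and 9.47 and 13.2 CPM in the KO. Its fall in the KO stomach was not called (log2 -0.78, edgeR adjusted p = 0.141), and its rise in the KO intestine was (log2 3.53). *Nkx6-1*, also higher in the control stomach, was called higher in both KO organs (log2 2.49 in the stomach, 8.05 in the intestine). *Nkx2-3* and *Hand1*, higher in the control intestine, were called higher in the KO stomach (log2 4.32 and 2.89) and not in the KO intestine. Between the control organs 3 of the 6 endothelial markers were called higher in the intestine, as were *Des* (smooth muscle) and *Rgs5* (pericytes). Of the epithelial markers 3 of 8 were called lower there (*Epcam*, *Cldn4*, *Cldn6*), as were *Wt1* (mesothelium) and *Nkx2-5* (pancreas and spleen). The epithelial marker *Esrp1* was called higher in both KO organs (log2 3.74 in the stomach, 5.89 in the intestine). In the KO stomach *S100b* (neural crest) and *Twist2* (mesenchyme) were called higher and *Lyz2* (leukocytes) lower. Between the KO organs 4 of 8 smooth muscle markers (*Actg2*, *Des*, *Tagln*, *Cnn1*), *Foxf2* (mesenchyme) and *Lyz2* were called higher in the intestine. *Wt1* and *S100b* were called lower there.

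The scaling of the libraries mattered in the KO comparisons. Spike-in RNA made up 0.0134% to 0.0403% of counts in the embryonic KO libraries and 0.0720% to 0.110% in the controls. With libraries scaled by spike-in totals, the median of all genes moved to a log2 difference of 2.39 in the KO stomach and 1.85 in the KO intestine. All 9 genes in the stomach and 8 of 9 in the intestine were then called higher, as were 15419 and 13664 of all 16218 genes. The sign was reversed for *Sfrp1* (2.11) and *Dkk3* (2.26) in the stomach and for *Dkk2* (1.75) in the intestine. *Sfrp1* in the intestine reversed to 1.56 without a call. Relative to the median of all genes, the stomach values were *Frzb* 1.66, *Sfrp2* 1.44, *Dkk2* 0.89, *Dkk3* -0.13 and *Sfrp1* -0.28. They were close to those with TMM by construction, since scaling shifts all genes of a library by 1 factor. This closeness is therefore no check of the calls.

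For *Sfrp2*, *Frzb* and *Dkk2*, the antagonists with a level above 1 CPM that varied at least 2-fold between embryonic groups, the genes with the most similar profile over the 8 embryonic libraries were listed as a description. For *Sfrp2* they were *Adcy2*, *Dzank1* and *Sox21* (Pearson r of log2 CPM from 0.991 to 0.997). For *Frzb* they were *Sepp1*, *Adcy4* and *Pantr1* (0.984 to 0.995), and for *Dkk2* they were *Hgf*, *Hoxd10* and *Meis3* (0.982 to 0.986). The 8 libraries fall into 4 groups, which all these genes share.

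In the adult intestine 5 of the 6 antagonists tested fell in the *Eed* KO libraries and none rose. They were *Sfrp1*, *Frzb*, *Wif1*, *Dkk2* and *Dkk3*. Over all genes 19.6% of 15039 tested were called, 12.3% as higher and 7.23% as lower. The median log2 difference of the 6 genes was -1.74, against 1.25e-03 for all genes. The 5 genes were wholly below the controls in both KO libraries, which happened in 33% of all genes.

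*Frzb* and *Wif1* had the largest fall among the 5. *Frzb* went from 47.9 and 53.4 CPM in the control to 12.8 and 2.24 CPM in the KO libraries (log2 -2.77 ± 0.66, edgeR adjusted p = 0.0245). *Wif1* fell from 27.95 and 13.7 CPM to 1.91 and 4.25 CPM (log2 -2.74 ± 0.51, adjusted p = 0.00966). *Dkk2* fell from 153 CPM in both controls to 60.9 and 26.4 CPM (log2 -1.81 ± 0.37, adjusted p = 0.0138). KO replicate 2 was the lower KO library for *Frzb* and *Dkk2* and the higher for *Wif1*, so the spread within the KO group was wide.

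*Dkk3* fell from 599 and 689 CPM to 258 and 147 CPM (log2 -1.67 ± 0.29, edgeR adjusted p = 0.00744). *Sfrp1* fell from 1716 and 1686 CPM to 849 and 496 CPM (log2 -1.34 ± 0.28, adjusted p = 0.0142). *Sfrp4* was at 7.39 and 6.52 CPM in the control and 6.42 and 13.6 CPM in the KO libraries (log2 0.53, adjusted p = 0.412), and its groups overlapped. The calls of the 5 genes were kept when any one library was left out, but sizes moved with the KO library. Without KO replicate 1 and without KO replicate 2, *Frzb* was at -4.51 and -1.98 and *Dkk2* at -2.55 and -1.33. *Wif1* was at -3.45 without KO replicate 2 and at -2.15 without control replicate 1. With 1 factor from the spike-in counts in the fit, *Wif1* alone was called, and the adjusted p of the other 4 lay between 0.07775 and 0.127.

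*Dkk1* had 0 counts in all 4 adult libraries, which allows up to 0.189 to 0.263 CPM. *Sfrp5* had 4 and 5 counts in the control and 1 and 4 in the KO libraries. *Sfrp2*, the second antagonist of the embryo, was at 9 and 10 counts in the control and at 2 and 61 counts in the KO libraries. The 61 counts were in replicate 2, the library with *Cpa1* at 690 CPM. The filter on low counts kept these 3 genes from the test, and only without KO replicate 1 was *Sfrp2* tested and called, as higher, on the single library that remained.

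The fall of the 5 antagonists came together with a change in cell type markers. All 6 leukocyte markers tested rose, and *Ptprc* went from 64.3 and 57.2 CPM to 1077 and 925 CPM. Summed mesenchyme markers were at 11413 and 11917 CPM in the control and 4988 and 3488 CPM in the KO libraries, with 5 of 9 called lower. Summed pericyte markers were at 13321 and 11432 CPM against 4398 and 3151 CPM, with 3 of 5 called lower, whereas 3 of 8 smooth muscle markers were called higher. *Pdgfrb*, the gene whose promoter drove the Cre, was at 162 and 124 CPM against 89.2 and 92.8 CPM. No leukocyte marker was at 0 in any adult library, and *Nkx3-2*, a mesenchyme marker, had 1 count or none in each.

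Scaled by the summed mesenchyme markers, an alternative chosen after these values were seen, the median of all genes moved to 1.502. Of 15039 genes, 9638 were then called higher and 131 lower, and 2 antagonists were called. *Frzb* stayed lower (log2 -1.42, adjusted p = 0.0293) and *Sfrp4* was higher (2.11, adjusted p = 0.00449). *Wif1* (-1.17, adjusted p = 0.0888), *Dkk2* (-0.40), *Dkk3* (-0.23) and *Sfrp1* (0.10) no longer passed. This scaling shifts all genes of a library by 1 factor, so all 6 tested antagonists moved up by a similar amount. *Sfrp1*, *Dkk2* and *Dkk3*, with the smallest falls of the 5 under TMM, came to lie nearest to the mesenchyme markers. The part of the leukocyte shift in these results was not tested.

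**Figure D5:**
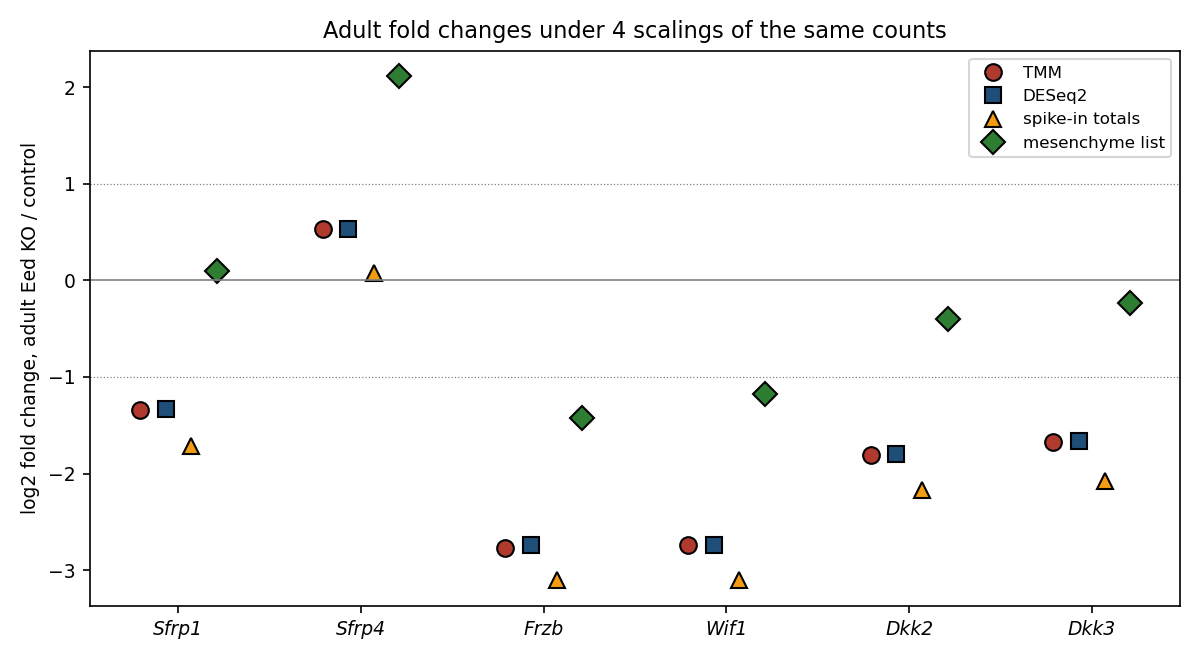
Log2 fold change of the 6 tested genes in adult *Eed* KO against control libraries (y axis) with the same counts scaled by TMM, DESeq2, spike-in totals or the mesenchyme markers; dotted lines mark 1 in size. The 5 called genes are below -1 in the first 3 scalings, and the mesenchyme scaling lifts all 6 genes, *Sfrp1* to 0.10.

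Adult and embryonic libraries were made with different kits and are set side by side only. The adult control intestine had 1669 TPM of the 9 genes, with 59.8% from *Sfrp1* and 29.5% from *Dkk3*, and 22.4 times as much antagonist as ligand RNA. The embryonic control intestine had 885 TPM, 5.25% from *Dkk3*, and a ratio of 3.56. In the adult KO the sum was 417 ± 178 TPM and the ratio 19.2 ± 4.0, with summed ligand RNA at 74.4 TPM in the control and 21.2 TPM in the KO libraries. As CPM, with TMM factors, the adult sum was 2552 and 2602 in the control and 1190 and 695 in the KO libraries, a smaller fall. *Sfrp2* supplied 9.96% of the sum in the embryonic and 0.0485% in the adult control intestine.

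Other genes of the pathway moved as follows. Over all genes, 3.39% were called lower in the control intestine, 4.84% higher in the KO stomach and 2.38% higher in the KO intestine. Between control organs 4 of 13 tested ligands, 1 of 15 receptors, 1 of the 2 Kremen genes, 1 of 9 genes of the R-spondin arm and 3 of 11 target genes were called lower in the intestine, and none higher. *Lef1*, a transcription factor and target of the pathway, was at 3.86 and 3.06 CPM in the stomach and 0.197 and 0.505 CPM in the intestine, and the ligand *Wnt2* had 43 and 119 counts against 2 and 6. In the KO stomach 3 ligands, 1 receptor, 3 targets, *Sostdc1* among 6 other inhibitors and 1 gene of the R-spondin arm were called higher, and *Rspo1* lower. In the KO intestine 2 ligands, 4 targets, *Kremen2* and *Rspo4* were called higher. *Rspo4*, an enhancer of Wnt signalling, had 51 and 59 counts in the KO and 2 and 5 in the control stomach, and 21 and 17 against 2 and 2 in the intestine. *Wnt2* had 66 and 103 counts in the KO intestine, where it was called. In the KO stomach it had 242 and 284 counts, above both controls, and was not called.

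Between the KO organs 2 ligands, *Sostdc1*, *Rspo4* and 3 targets were called lower in the intestine, as were 2.94% of all genes. No gene of these lists passed the interaction test at an adjusted p below 0.2. In the adult KO 6 of 12 receptors, 3 of 7 ligands, 2 of 7 genes of the R-spondin arm and 1 of 5 other inhibitors were called lower, and 1 ligand was called higher. Over all genes 7.23% were called lower and 12.3% higher. The leukocyte and mesenchyme markers shifted in the same libraries, and the part of that shift in these counts was not tested. *Apcdd1*, a membrane-bound Wnt inhibitor, fell from 24.2 and 17.4 CPM to 4.42 and 3.71 CPM, and *Fzd2*, a Frizzled receptor, fell from 31.3 and 21.2 CPM to 7.03 and 4.10 CPM. The 2 genes for Wnt secretion, *Wls* and *Porcn*, were called in no comparison.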

How the data were processed

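RNA-seq covered 8 embryonic and 4 adult libraries, and ATAC-seq covered 4 embryonic groups. The authors trimmed reads with Trimmomatic, aligned RNA reads with STAR to GRCm38/mm10 with spike-in sequences and deposited whole-number counts per gene symbol from featureCounts on GENCODE vM4; counts were stranded in the embryo and unstranded in the adult. For ATAC-seq they aligned with BWA-mem, pooled replicates and called broad peaks with MACS2, so the deposited peak lists hold a fold enrichment (ratio) and a -log10 q value from the authors for each peak.

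Differences were tested in edgeR 4.0.16 by its quasi-likelihood method (limma 3.58.1, R 4.3.3) after TMM scaling and the filterByExpr filter, in 1 fit of 4 embryonic groups and 1 of 2 adult groups, with Benjamini-Hochberg adjustment over all 16218 embryonic or 15039 adult genes. A call needed an adjusted p below 0.05 (0.2 for the interaction) and a log2 difference larger than 1, up or down. DESeq2 1.42.0 with its own size factors and a factor from the spike-in counts in edgeR were separate alternatives; the study joined RUV-seq and DESeq2 in 1 pipeline, which was not repeated. The procedure was tested on simulated data, drawn without a replicate effect shared by groups. The outcome is not given here, so no support for the calls is drawn from it. TPM used exonic lengths from the adult files and no TMM factors. A promoter peak lay within 1000 bases of the vM4 gene start. Promoter sequences came from RefSeq on GRCm38.p6. Tables were made with Python 3.11.15, pandas 2.3.3 and numpy 2.4.6.

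All 9 antagonists were named in every comparison except the interaction, where some were given only as a group. Of the other pathway genes, counts and some of the 4 largest changes were given. Single called genes of a list were named after their values were seen. Genes of similar profile were the 3 with the highest Pearson r. The members and lists were chosen with earlier results of these data known. The alternatives were DESeq2, no filter on low counts, spike-in scaling, a spike-in factor, only the compared libraries and leaving out each library. The replicate number was also used as a block, for all libraries or by genotype. Peaks were also counted with other windows (500 and 5000 bases) and with -log10 q of at least 2 or 5.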

Additional observations from a re-analysis of the deposited data

Results flagged for a closer look

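Opposite directions in the embryonic and the adult intestine drew attention to 2 genes. *Frzb* was higher in both embryonic *Eed* KO intestine libraries than in both controls (log2 0.61, not called) and lower in both adult KO libraries than in both controls (log2 -2.77, called), a difference of 3.38 between the log2 fold changes. The adult value was -4.51 without KO replicate 1 and -1.98 without KO replicate 2. *Wif1* was likewise higher in the embryonic KO intestine (1.07, not called) and lower in the adult KO (-2.74, called), a difference of 3.80. These differences between ages were not tested. Of all genes, 21.8% lay wholly higher in the embryonic KO intestine and 33% wholly lower in the adult KO. The share of all genes with both was not determined, so the 2 genes cannot be set against it. Embryonic *Wif1* had only 38 and 22 counts in the KO and 10 and 15 in the control intestine. The 2 ages were sorted through different Cre drivers and made with different kits, and summed leukocyte markers were at 89752 and 100924 CPM in the adult KO libraries against 2651 and 3475 CPM in their controls.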

How the results depend on the processing

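Of 597 alternatives for single fold changes, 516 kept the direction and the side of the threshold, 29 lost a call, 20 gained one and 32 reversed in sign, most of them uncalled on both sides. With spike-in scaling, 1 of the 9 genes was called between control organs (3 with TMM) and 0 between the KO organs (2). It called 9 in the KO stomach (2) and 8 in the KO intestine (0), where 15419 and 13664 of all 16218 genes were called higher. The log2 values reversed under it were *Sfrp1* 0.30 between control organs, *Sfrp1* 2.11 and *Dkk3* 2.26 in the KO stomach, *Sfrp1* 1.56 and *Dkk2* 1.75 in the KO intestine, *Wif1* -0.34 between KO organs, and *Dkk3* 0.27 and *Wif1* 0.059 for the interaction. With 1 factor from the spike-in counts, 1 gene was called in the KO stomach and 1, *Wif1*, in the adult (5), and *Dkk3* in the KO intestine (-0.42) and *Wif1* between KO organs (-0.011) reversed. Scaled by the mesenchyme markers, which was chosen after seeing the data, 2 were called between control organs, 1 between the KO organs and 2 in the adult. In the adult 9638 of 15039 genes were then called higher and 131 lower. This scaling reversed *Sfrp1* between control organs (0.14), *Dkk3* in the KO intestine (-0.042) and adult *Sfrp1* (0.10). Between KO organs it reversed *Sfrp1* (0.095) and *Frzb* (0.12). DESeq2 and the fit without a filter on low counts each called 1 gene in the KO intestine and 1 for the interaction (0 and 0). With only the compared libraries in the fit, 1 was called between the KO organs. The cause of these differences was not tested.

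Leaving out 1 library gave 1 to 2 calls between control organs, 1 to 2 in the KO stomach, 0 to 1 in the KO intestine, 1 between the KO organs, 0 to 1 for the interaction and 5 to 6 in the adult. Uncalled log2 values that changed sign ranged, between control organs, from -0.095 to 0.083 for *Sfrp1*, -0.045 to 0.41 for *Dkk3*, -1.49 to 0.33 for *Dkk1* and -0.52 to 0.99 for *Sfrp5*. They ranged from -0.34 to 0.12 for *Dkk3* and -0.19 to 0.93 for *Sfrp4* in the KO stomach, and from -0.19 to 0.014 for *Dkk2* and -0.28 to 0.27 for *Dkk3* in the KO intestine. Between KO organs the ranges were -0.48 to 0.16 for *Sfrp1*, -0.71 to 0.075 for *Sfrp5* and -0.32 to 0.35 for *Wif1*. For the interaction they were -0.40 to 0.15 for *Dkk3*, -0.25 to 1.26 for *Sfrp5* and -0.18 to 0.47 for *Sfrp1*, and adult *Sfrp4* ranged from -0.12 to 0.94. Replicate numbers are shared by the groups, but no source says that they mark shared animals. The study's methods describe that stomach and intestine were dissected apart from each embryo, so libraries of the 2 organs may be paired. Differences between replicates correlated at 0.249 between the control organs, 0.615 between the KO organs, 0.0384 to 0.135 between genotypes and -0.0538 in the adult. With the replicate block the counts of calls were 3, 2, 0, 2, 0 and 5, equal to those without it, and *Sfrp2* in the KO intestine had a log2 difference of 0.94 (edgeR adjusted p = 0.00402) under the threshold of 1. A replicate block by genotype called *Dkk2*, *Sfrp2* and *Sfrp4* between the control organs, with 372 of all genes higher and 751 lower. *Sfrp2* had an edgeR adjusted p of 2.63e-04 in that fit. Between the KO organs the same fit called *Sfrp2* and *Sfrp4*, with 357 of all genes higher and 774 lower. All 9 genes had a promoter peak under every window and q threshold tried. Counts of 45 or fewer limit *Sfrp4*, *Sfrp5*, *Dkk1* and *Wif1* in the embryo.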
